A study of Mus musculus with 27 samples.

Results

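Chromatin that opens in groups, without overlapping a mapped Runx peak, was examined in mouse mK4 cells that lack Runx1. A region was counted as a clustered opening region when the deposited list of ATAC-seq regions that gain accessibility in Runx1KO cells held it, when it overlapped no ChIP-seq peak of Runx1 or Runx2 by even 1 bp, and when another region of the same list lay within 12500 bp, edge to edge. There were 3347 such regions, which is 35.5% of the 9427 opening regions and 6.01% of all 55649 ATAC-seq regions. All positions are 1-based in mm9.

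mK4 is a cell line derived from the metanephric mesenchyme, the tissue that forms the nephrons of the kidney. Control cells are the parental line. Runx1KO cells carry a CRISPR-Cas9 deletion of exon 3 of Runx1, and ZebDKO cells carry deletions of exon 2 of Zeb1 and exon 1 of Zeb2 with Runx1 left in place. ATAC-seq covered control and Runx1KO cells, Runx1 peaks come from control cells and Runx2 peaks from both lines, and RNA-seq covered all 3 lines with 3 libraries each. No drug, age or time point separates the groups, and no chromatin data of ZebDKO cells are used here. Both knockouts were grown from selected clones, and the number sequenced is not given in the sources used here. Effects of a clone and of its genotype cannot be told apart, and p-values measure only the spread between libraries.

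ATAC-seq marks DNA that a transposase can reach, such as promoters and enhancers in use. Zeb1 and Zeb2 are zinc finger repressors that bind the E-box forms CAGGTA and CAGGTG and hold epithelial genes silent in mesenchymal cells. They are kept in check by Grhl2, an activator of epithelial genes, and by the microRNAs of the miR-200 family. Loss of Zeb factors is known to let mesenchymal cells gain junctions, keratins and apicobasal polarity.

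The line expressed markers of its tissue of origin in part. Of 10 genes marking metanephric mesenchyme, 5 averaged at least 1 TPM (transcript abundance scaled for gene length and library total) in control cells, with Pax2, Osr1, Sall1, Eya1 and Gdnf present and Six2 and Hoxd11 listed at 0 in all 3 libraries. Endothelial markers summed to at most 4.60 TPM and leukocyte markers to at most 3.40 TPM in control libraries, with Kdr, Emcn and Ptprc at 0. Between 12541 and 12697 genes reached 1 TPM in a library. TPM keeps no read numbers, so depth is unknown. The targeted exon of Runx1 is a small part of its mRNA, and the gene read 18.7, 15.6 and 17.9 TPM in control and 30.3, 30.1 and 28.5 TPM in Runx1KO libraries, which checks nothing about the deletion. Runx1 itself had 2 clustered opening regions, 83.5 and 84.8 kb from its start, and its log2 fold change of 0.74 was not called. Zeb1 mRNA likewise stayed in ZebDKO cells at 16.8, 16.6 and 14.8 TPM, beside 15.1, 14.2 and 15.6 TPM in control cells, while in Runx1KO cells it read 0.1, 0.2 and 0.2 TPM. Zeb2 fell from 5.5, 4.9 and 5.2 TPM in control to 0.2 TPM in each Runx1KO library, and read 1.7, 1.8 and 1.6 TPM in ZebDKO libraries (log2 fold change against control -1.20, called lower). Neither Zeb gene had a clustered opening region, and they had 4 and 6 closing regions assigned.

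Stretches of selected clustered opening regions show what a Zeb match looks like. For each gene the region with the most Zeb matches was taken, so the stretches are not typical of the regions. Each line gives a 150 bp stretch of 1 region, chosen as the stretch with the most Zeb matches that holds no untranslated exon, read from mm9 on the plus strand. Capitals mark CAGGTA and CAGGTG or their reverse complements. The regions belong to Kank1 and to epithelial genes described further on.
Krt8 promoter, chr15:101834811-101834960: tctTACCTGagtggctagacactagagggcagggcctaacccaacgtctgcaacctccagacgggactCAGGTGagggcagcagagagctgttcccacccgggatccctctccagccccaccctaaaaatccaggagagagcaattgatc
Cldn4, intergenic, chr5:135427441-135427590: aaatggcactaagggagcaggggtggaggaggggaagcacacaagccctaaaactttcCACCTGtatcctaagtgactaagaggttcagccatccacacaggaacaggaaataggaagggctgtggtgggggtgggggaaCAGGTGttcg
Kank1 intron, chr19:25501001-25501150: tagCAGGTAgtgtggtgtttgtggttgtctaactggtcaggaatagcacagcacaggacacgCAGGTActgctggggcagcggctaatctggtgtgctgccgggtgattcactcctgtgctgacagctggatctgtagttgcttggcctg
Epcam, intergenic, chr17:88019488-88019637: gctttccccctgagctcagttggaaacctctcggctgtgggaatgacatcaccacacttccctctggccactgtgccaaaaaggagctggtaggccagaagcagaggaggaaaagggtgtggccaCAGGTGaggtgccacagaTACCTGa
Cdh1 intron, chr8:109156754-109156903: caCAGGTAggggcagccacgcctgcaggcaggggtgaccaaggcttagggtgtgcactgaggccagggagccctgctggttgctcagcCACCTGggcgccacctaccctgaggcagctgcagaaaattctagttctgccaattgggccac
Each stretch shown holds 2 matches, which follows from the choice of region and stretch, and a stretch chosen the same way at Tmem51 held 1. Over their whole length, 46.4% of clustered opening regions held 2 or more matches. A match of this kind is a description of letters and not a measurement of binding.

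A Zeb match was present in 2607 of the 3347 clustered opening regions, or 77.9% (Wilson 95% interval 76.5 to 79.3). The share was 79.2% in the 5623 isolated opening regions without a Runx peak, 55.4% in clustered stable regions without a Runx peak, 39.5% in clustered closing regions without a Runx peak and 59.3% in all ATAC-seq regions. The 457 opening regions with a Runx peak held a match in 81.8% of cases, and in 43.5% within the 200 bp around their middle. These are shares of whole regions, whose median width was 507 bp for clustered opening regions and 598 bp for all regions. In the 200 bp around the middle, where length is equal, the shares were 50.3% in clustered opening, 51.7% in isolated opening, 25.2% in clustered stable and 12.6% in clustered closing regions and 26.3% in all regions. The share was not higher in clustered than in isolated opening regions, and both stood above the stable and closing classes and above the whole set of ATAC-seq regions. Regions of 1 list are not replicates and neighbours share a locus, so these shares carry no test.

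Several matches often lay in the same region. No match was found in 740 clustered opening regions, 1 in 1055, 2 in 825, 3 in 393, 4 in 197 and 5 or more in 137. The density was 2.84 matches per kb, beside 2.91 in isolated opening, 1.52 in clustered stable and 0.852 in clustered closing regions. CAGGTG was present in 65.0% of clustered opening regions and CAGGTA in 37.7%, with both in 24.8%. In clustered stable regions the same shares were 43.6%, 23.3% and 11.6%. Zeb matches stood in 83.5% of the 334 clustered opening regions at promoters and in 77.3% of the rest.

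Matches were concentrated at the middle of the regions. In 50 bp steps across 500 bp on either side, Zeb density in clustered opening regions went from 1.37 matches per kb at its lowest to 3.82 at the middle. In clustered stable regions it stayed between 1.39 and 1.58 matches per kb, and in clustered closing regions it was lowest, at 0.610, near the middle. AP-1 matches (TGACTCA or TGAGTCA), the site of Fos and Jun dimers, peaked at the middle in every class, with a maximum of 1.73 matches per kb in clustered opening, 2.09 in isolated opening and 1.86 in clustered closing regions.

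**Figure D1:**
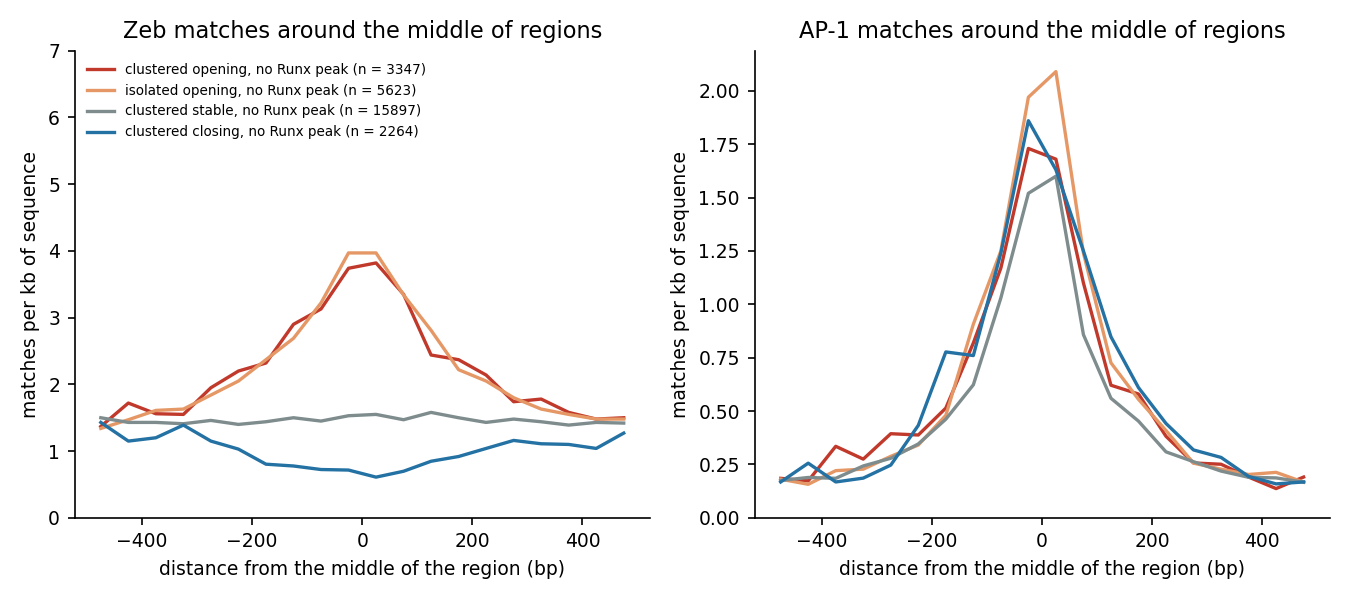
Density of Zeb matches (left) and AP-1 matches (right) per kb of sequence against distance from the middle of the region in bp, in 50 bp steps, for 4 classes of regions without a Runx peak, with the number of regions in the key. The lines of both opening classes rise toward the middle in the Zeb panel, to 3.82 matches per kb for clustered opening regions, while the stable line stays flat and the closing line dips (the vertical scales of the panels differ).

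Motifs of other factors were counted the same way. An AP-1 match was found in 42.2% of clustered opening regions, 45.3% of isolated opening regions, 46.3% of clustered closing and 36.5% of clustered stable regions. Among clustered opening regions with a Zeb match 44.0% also held an AP-1 match, and among those without a Zeb match 35.9% did. The Runx letters TGTGGT stood in 34.7% of clustered opening, 33.4% of isolated opening and 43.7% of clustered closing regions, all without a Runx peak. Opening regions with a Runx peak held them in 66.3% of cases. The share was 40.5% in all regions, which include regions with a Runx peak, so it is not a like comparison. Klf letters (CCACACCC or CCACGCCC, the site of Kruppel-like factors, the first of which overlaps TGTGG on its other strand) stood in 15.8%, beside 730 of 5623 isolated opening regions and 14.5% of all regions. Tead letters (ACATTCC) were in 11.1% and Ets letters (CCGGAAGT) in 1.08%, beside 9.10% and 2.45% of clustered stable regions and 6132 and 1793 of all 55649 regions. A match to the Ctcf motif, the site of the insulator protein, was present in 2.78% of clustered opening regions, 6.72% of clustered stable regions, 0.574% of clustered closing regions and 4.94% of all regions.

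Grhl letters (AACCGGTT or AACCAGTT) were rare, and many of them lay in 1 block of the genome. They stood in 94 clustered opening regions, or 2.81%, beside 1.62% of isolated opening regions and 1170 of all 55649 regions. Of these 94, 32 lay among the 39 clustered opening regions in chrX:144000001-147000000. Without that block and a block at the end of chromosome 13, both described further on, the share was 1.89% (62 of 3284). Leaving out both blocks moved the Zeb share to 78.8%.

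The regions lay mostly outside promoters and exons. By overlap with GENCODE vM1 gene models, 9.98% lay within 1 kb of a protein-coding start, 5.71% touched a coding exon, 1.58% another exon, 31.3% lay in introns and 51.4% between genes. The median distance to the nearest start was 15.7 kb, beside 19.2 kb for isolated opening, 33.2 kb for clustered closing and 11.1 kb for clustered stable regions. GC content had a median of 52.0%, and the ratio of observed to expected CpG had a median of 0.219, rising to 0.316 at promoters. At promoters the median CpG ratio was 0.320 in isolated opening, 0.291 in clustered closing and 0.621 in clustered stable regions. A ratio below that of stable promoters was thus not particular to promoters that opened.

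Opening regions within that same distance of each other were joined into runs. There were 1445 runs that held at least 1 clustered opening region without a Runx peak, of which 1041 had 2 opening regions, 261 had 3, 91 had 4 and 52 had 5 or more. Runs spanned up to 51.6 kb, with a median of 7.70 kb. In 1086 runs (75.2%) no stable or closing region lay inside, in 337 (23.3%) a stable region did, and in 34 (2.35%) a closing region did. Of 1352 runs with at least 2 of the regions, 1041 (77.0%) had all of them nearest to the same gene, and in 769 (56.9%) every one held a Zeb match. The share of regions with a Zeb match was 79.3% in runs of 2 (1579 of 1991), 82.8% in runs of 4 and 69.3% in runs of 5 or more, and in runs of 3 a match stood in 558 of 744 regions.

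The surroundings held stable regions more often than closing ones, and the stable list is also the larger, with 37481 regions beside 8741. Within 12500 bp, 63.3% of clustered opening regions had a stable region and 8.75% a closing region, beside 60.8% and 12.6% for isolated opening regions. A ChIP-seq peak of Runx1 or Runx2 lay within that distance of 38.9% of clustered opening regions. The share was 34.1% in isolated opening, 50.3% in clustered stable and 47.5% in clustered closing regions without a Runx peak. It was 51.1% in all regions, which include regions that overlap a peak. The peak closest to a clustered opening region lay 13 bp away, and 99 of these regions had a peak within 1 kb. The distance limit of the rule fell between regions that hardly differ, with the widest gaps inside at 12455 and 12500 bp and the narrowest outside at 12514 and 12518 bp.

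Grhl2 (ENSMUSG00000022286.9, chr15:37162791-37293324, plus strand) shows how the regions sit at a gene. It had 5 clustered opening regions in 2 runs and 12 Zeb matches in them. A region of 816 bp at chr15:37162121-37162936 covered the transcription start and held 5 Zeb matches. A further region of the same run stood upstream at chr15:37151114-37151788. The other run held regions 75.3, 73.2 and 67.5 kb upstream, measured from the near edge, of which the last, chr15:37094048-37095243, was 1196 bp wide with 3 Zeb matches. Isolated opening regions stood 26.8, 39.6 and 96.9 kb upstream, of which the nearer pair lay 12527 bp apart and so fell just outside the distance limit. None of the opening regions of Grhl2 overlapped a Runx peak, and a stable region 31.6 kb upstream did. No Grhl letters were found in any of its opening regions.

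The PCR primers that the study designed around Grhl2 were placed in the genome. The amplicon at the start (chr15:37162444-37162533, 90 bp) and those at chr15:37094480-37094670 (191 bp) and chr15:37089330-37089436 (107 bp) each lay wholly inside a clustered opening region. The amplicon at chr15:37122940-37123025 lay inside an isolated opening region, and the one at chr15:37130450-37130633, named as open, inside the stable region with a Runx peak. The amplicon named as closed, chr15:37126686-37126871, lay in no ATAC-seq region. The study also read amplicons of this locus by qPCR in transposed chromatin of ZebDKO cells, and those values are not used here.

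**Figure D2:**
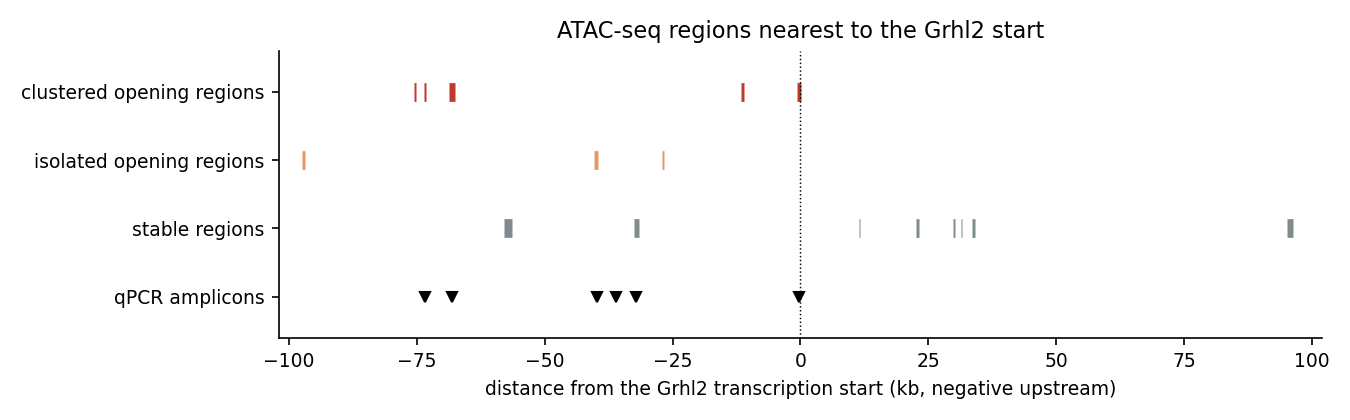
ATAC-seq regions whose nearest start is that of Grhl2, drawn to scale against distance from the start in kb, with clustered opening, isolated opening and stable regions in rows and the midpoints of the study's 6 qPCR amplicons as triangles. All 8 opening regions lie at or upstream of the start, and 6 of the 8 stable regions lie downstream.

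Grhl2 mRNA read 0.1 TPM in each control library, 5.0, 5.0 and 4.9 TPM in Runx1KO and 1.1, 1.4 and 0.9 TPM in ZebDKO libraries. The 3 groups do not overlap, with Runx1KO highest. On log2(TPM+1), Runx1KO exceeded control by 2.44 (SE 0.071; adjusted p 2.07e-07 by limma), and Runx1KO exceeded ZebDKO by 1.49 (SE 0.098) on the same scale (adjusted p 6.29e-06).

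The regions were then read against expression. Each was assigned to the protein-coding gene with the nearest start within 100 kb, which placed 3073 of them (91.8%) at 1410 genes. Of these genes 1329 were in the TPM table, and 940 passed a filter that asks for 1 TPM in 3 or more of the 6 libraries compared. A gene was called when its log2 fold change passed 1 in either direction at an adjusted p under 0.05 over all genes tested. In Runx1KO cells 279 of the 940 genes were higher (29.7%), where the background over all 13067 genes tested was 7.91%, and 31 were lower (3.30%), where the background was 5.10%. Their median log2 fold change was 0.35, beside -0.06 for all genes.

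The filter lets in genes that only Runx1KO cells express, so the same count was read in 2 other ways. Of the 940 genes, 782 averaged at least 1 TPM in both lines, and of these 158 (20.2%) were higher and 23 lower, beside 4.82% higher among all such genes. With no filter, 280 of 1237 genes near the regions (22.6%) were higher, beside 5.66% of 18327 genes.

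Genes with more of the regions, and with one closer to the start, were called higher more often. Among genes with 1, 2, 3 and 4 or more of the regions, 26.4%, 23.9%, 35.7% and 55.4% were higher in Runx1KO cells. Genes with isolated opening regions and none of the clustered ones were higher in 13.4% of 2263 cases, and genes with no opening region in 3.43% of 8216. Of genes with 3 or more isolated opening regions 5.88% were higher (5 of 85). Where the closest clustered opening region lay within 1 kb of the start, 143 of 226 genes (63.3%) were higher and 3 lower. From 1 to 10 kb the share was 28.4%, from 10 to 50 kb 13.4% and from 50 to 100 kb 9.33%, near the background. Genes that also had a closing region assigned were higher in 16.5% and lower in 7.92% of 303 cases, against 35.9% and 1.10% of 637 genes without one. Shares for clustered opening regions rest on the 940 genes that passed the filter. Of these, 140 averaged at least 1 TPM in Runx1KO cells only, and 121 of those were higher. The shares by number and by distance were not recounted without them, so how steep they are without such genes is unknown.

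The share of genes called higher in Runx1KO cells was similar with and without a Zeb match in the regions. Of 868 genes with a match in at least 1 of their regions 29.5% were higher, and of 72 genes with none 31.9% were. In ZebDKO cells the same counts were 196 of 852 and 7 of 65 genes (10.8%). The difference between these shares was not tested.

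In ZebDKO cells 203 of 917 genes near the regions were higher (22.1%, background 7.48%) and 38 lower (4.14%, background 7.27%), with a median log2 fold change of 0.13 beside -0.18 for all genes. Of the 203, 91 averaged at least 1 TPM in ZebDKO cells only. Among the 782 genes that did so in both lines, 112 (14.3%) were higher and 32 lower, beside 4.84% higher among all such genes. With no filter, 207 of 1233 genes near the regions (16.8%) were higher, beside 5.12% of 19017 genes. Median-ratio scaling of the libraries moved the all-gene median in ZebDKO cells from -0.18 to 0.00, so fold changes in that comparison are best read against -0.18. Both comparisons share the control libraries, and the lists of opening, closing and stable regions compare Runx1KO with control cells only. Compared directly, 180 of 969 genes near the regions were higher in Runx1KO than in ZebDKO cells (18.6%, background 9.20%) and 79 lower (8.15%, background 6.59%).

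**Figure D3:**
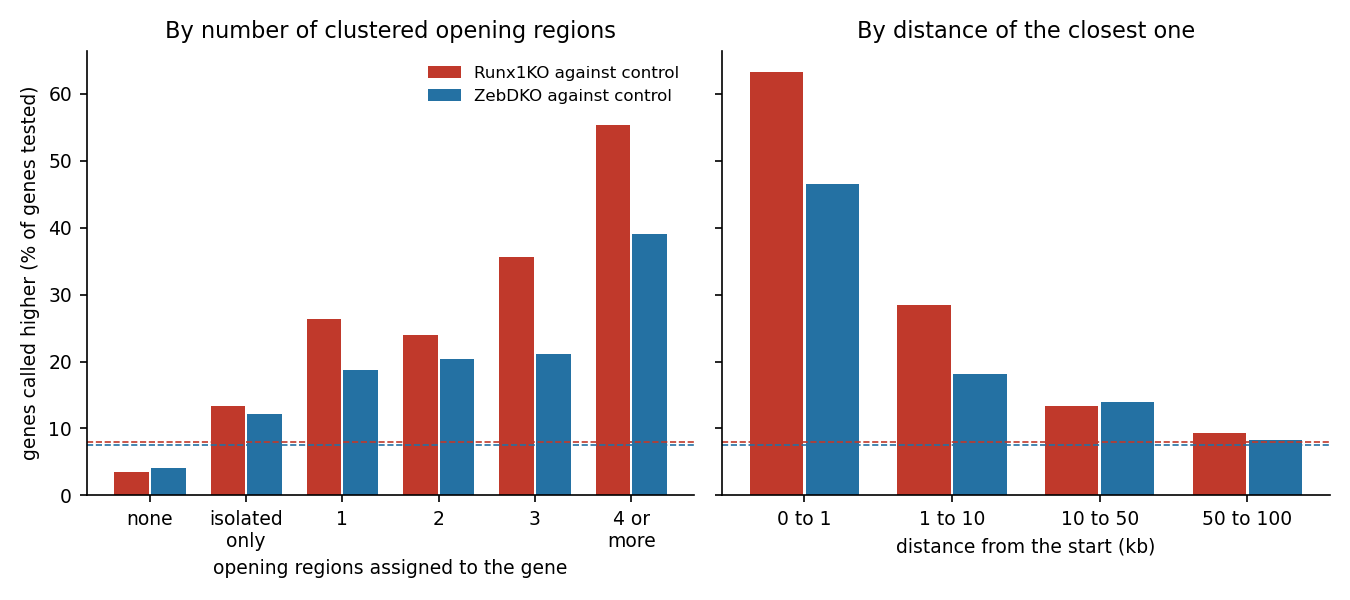
Genes called higher, as a percent of genes tested, against the number of opening regions assigned to them (left) and the distance of the closest clustered opening region from the start in kb (right), for Runx1KO (red) and ZebDKO (blue) against the shared control libraries, with dashed lines at the share over all genes tested, 7.91% and 7.48%. In the left panel the numbers count clustered opening regions and the first pair of groups has none, and bars are highest for 4 or more regions (55.4% in Runx1KO) and for regions within 1 kb of the start (63.3%). Genes that passed the filter through a knockout alone are included.

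Of the 20 tested genes with the most of these regions, 18 were higher in Runx1KO cells, none was lower, and Krt80 and Btbd11 were not called (log2 fold changes 0.92 and 0.17). Those of the 18 ran from 1.12 for Epop to 4.99 for Fam110c. These 20 were taken among genes that passed the filter, and 8 of the 18 averaged under 1 TPM in control cells, so they passed it through their Runx1KO libraries (background 7.91%). Of the 20 genes with the most regions whether tested or not, 13 were higher, 2 were not called and 5 were below the filter. In ZebDKO cells 8 of the first 20 were higher, 9 were not called and 3 were below the filter (background 7.48% higher). Of these 8, 5 averaged under 1 TPM in control cells and so passed the filter through their ZebDKO libraries. In the direct comparison 9 of the 20 were higher in Runx1KO cells and none lower (background 9.20% higher).

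Kank1, which encodes a scaffold protein that regulates actin and adhesion, had the most, with 11 regions in 6 runs from its start to 40.7 kb away. It read 0.4, 0.4 and 0.6 TPM in control, 9.9, 9.4 and 10.6 TPM in Runx1KO and 6.5, 6.5 and 6.2 TPM in ZebDKO libraries. Both knockouts lie above the control without overlap, with log2 fold changes of 2.90 (SE 0.085) and 2.34 (SE 0.085). Tmem51, a gene for a transmembrane protein, had 8 regions with 16 Zeb matches and was listed at 0 in each control library, at 29.1, 31.5 and 29.0 TPM in Runx1KO and at 17.2, 19.7 and 17.7 TPM in ZebDKO libraries. Casz1, a zinc finger transcription factor, rose from 2.9, 2.5 and 2.9 TPM in control to 14.2, 14.0 and 13.6 TPM in Runx1KO and 11.1, 10.7 and 10.6 TPM in ZebDKO libraries.

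Other genes of the 20 rose in Runx1KO cells and were not called, or not tested, in ZebDKO against control. Bcar3, an adaptor of integrin signalling with 6 regions, read 14.5, 16.2 and 15.2 TPM in control, 59.4, 55.8 and 56.8 TPM in Runx1KO and 20.8, 19.9 and 19.5 TPM in ZebDKO libraries. Emp2, a tetraspan membrane protein with 6 regions, read 44.2, 41.3 and 44.9 TPM, 185.2, 186.4 and 179.6 TPM, and 65.5, 68.0 and 66.0 TPM in the same order. Cntfr, the receptor subunit for ciliary neurotrophic factor, read at most 0.1 TPM in control, 8.1, 8.5 and 8.3 TPM in Runx1KO and 0.9, 0.8 and 0.8 TPM in ZebDKO libraries. All 3 were higher in Runx1KO than in ZebDKO cells in the direct comparison. Btbd11 and Epop show that many regions need not go with a large change, since Btbd11 had 7 regions and read 8.5, 8.6 and 8.6 TPM in control and 9.7, 9.1 and 10.5 TPM in Runx1KO libraries, and Epop had 6 and reached a log2 fold change of 1.12.

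The 8 largest rises among genes near the regions included those of a keratin, a claudin and an apical trafficking protein. Krt8, a keratin of simple epithelia with 2 regions and one over its start, read 1.8, 1.9 and 3.6 TPM in control, 2302.3, 2393.5 and 2362.3 TPM in Runx1KO and 1086.7, 1026.5 and 1037.8 TPM in ZebDKO libraries. Cldn4, a tight junction claudin with 4 regions, read 0, 0 and 0.4 TPM in control, 233.8, 223.8 and 237.2 TPM in Runx1KO and 50.3, 45.9 and 45.7 TPM in ZebDKO libraries. Mal, an apical trafficking protein with 5 regions, read 0.1 TPM in each control library, 168.8, 163.9 and 166.7 TPM in Runx1KO and 67.1, 63.2 and 64.7 TPM in ZebDKO libraries. In each of these the 3 groups stand apart with Runx1KO highest, and the log2 fold changes of Runx1KO against control were 9.46 (SE 0.18), 7.70 (SE 0.13) and 7.25 (SE 0.039), with adjusted p-values from limma of 2.69e-08, 1.89e-08 and 2.81e-10.

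Grb7, an adaptor of receptor tyrosine kinases, and Eps8l2, an actin regulator, rose by 7.17 and 7.30 on the log2 scale in Runx1KO and by 6.61 and 7.67 in ZebDKO cells, and neither was called in the direct comparison. Slc2a3, a glucose transporter with 5 regions, read at most 0.2 TPM in control, 94.9, 95.4 and 88.5 TPM in Runx1KO and 2.9 TPM in each ZebDKO library. Unc13d, a vesicle priming factor with 2 regions, read 84.0, 80.9 and 79.7 TPM in Runx1KO and 3.5, 4.3 and 3.8 TPM in ZebDKO libraries, with control at or below 0.6 TPM. Bst1, an ectoenzyme, rose by 6.23 in Runx1KO and by 5.16 in ZebDKO cells.

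The largest falls went against the direction of the chromatin. Hunk, a protein kinase with a region over its start, read 21.5, 22.0 and 21.4 TPM in control, 2.6, 2.3 and 2.6 TPM in Runx1KO and 9.5, 9.8 and 10.4 TPM in ZebDKO libraries. Lrp1, an endocytic receptor with a region 0.164 kb from its start, read 61.5, 48.6 and 56.0 TPM in control and 7.2, 7.4 and 7.5 TPM in Runx1KO libraries. Both also had 2 closing regions assigned. Cd80, a costimulatory ligand with 1 region 16.5 kb away, no Zeb match and no closing region, fell from 21.6, 21.1 and 20.4 TPM to 1.2, 0.6 and 0.7 TPM. Of the rest of the 8 largest falls, Bdkrb1 fell by 2.56, Sorcs2 fell by 2.53, Col5a1 fell by 2.40, Atoh8 fell by 2.22 and Socs1 fell by 1.94 on the log2 scale, and each had from 1 to 5 closing regions assigned.

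**Figure D4:**
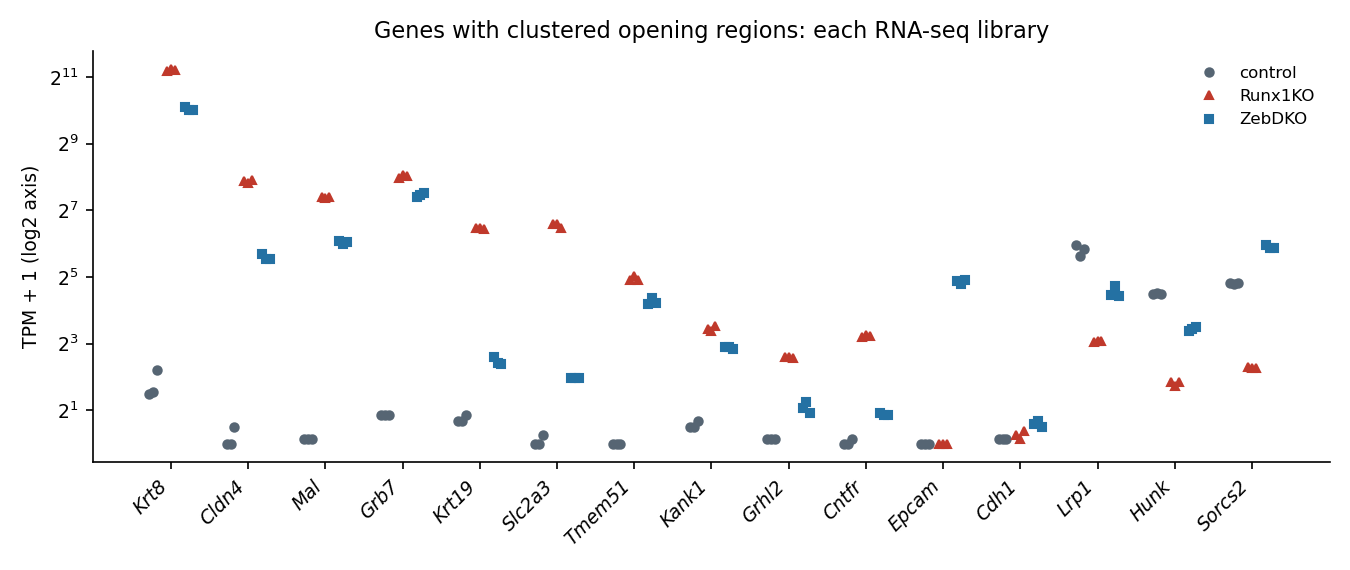
TPM + 1 on a log2 axis in every RNA-seq library of control (grey circles), Runx1KO (red triangles) and ZebDKO (blue squares) cells, for 15 genes that have clustered opening regions, 3 points a group. Krt8 reaches from 1.8 TPM in a control to 2393.5 TPM in a Runx1KO library, Epcam is raised in ZebDKO libraries with Runx1KO at 0, and Lrp1, Hunk and Sorcs2 stand lowest in Runx1KO.

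Lists of epithelial genes give a broader reading. Of 61 genes for junctions, cytoskeleton, polarity, adhesion to matrix, transcription and membrane proteases, 30 had at least 1 clustered opening region and 69 regions in all. Of these 30, 18 were higher in Runx1KO cells, 1 was not called and 11 were below the filter, where the background over all genes tested was 7.91%. Of the 18, 7 averaged under 1 TPM in control cells and so passed the filter through Runx1KO libraries, and 11 averaged 1 TPM or more. In ZebDKO cells 20 of the 30 were higher, 3 were not called and 7 were below the filter (background 7.48%), and 10 of the 20 averaged under 1 TPM in control cells. Genes on the lists without such a region also rose, so that 32 of all 61 were higher in Runx1KO cells, 7 were not called and 22 were below the filter. Itgb4, the integrin of hemidesmosomes, had none of the regions and read 0.6, 0.5 and 0.5 TPM in control and 64.3, 60.0 and 61.3 TPM in Runx1KO libraries.

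Among junction genes 11 of 20 had a region, of which 6 were higher in Runx1KO cells (background 7.91%) and 5 were below the filter. Besides Cldn4 the 6 were Ocln (occludin, log2 fold change 1.77), Cgn (cingulin, 2.92), F11r (the adhesion molecule JAM-A, 1.57), Jup (plakoglobin, 1.61) and Pkp3 (a plakophilin of desmosomes, 4.77). Cldn4, Ocln and Pkp3 averaged under 1 TPM in control cells. Among the 5 below the filter, Cdh1, which encodes E-cadherin, had 4 regions with 13 Zeb matches, from 4.90 to 29.1 kb from its start, and read 0.1 TPM in each control and 0.2, 0.1 and 0.3 TPM in Runx1KO libraries. Epcam, an epithelial adhesion molecule, had 2 regions and was listed at 0 in all control and Runx1KO libraries, while ZebDKO libraries read 28.3, 26.7 and 28.8 TPM. Dsp (desmoplakin) had 2 regions and read at most 0.1 TPM in every library. These regions opened in Runx1KO cells while the mRNA of the nearest gene stayed at or near 0 TPM there.

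Among cytoskeletal genes 5 of 9 had a region. Krt18, the partner of Krt8, rose from at most 0.3 TPM in control to 31.2, 31.5 and 34.6 TPM in Runx1KO and 37.4, 44.6 and 46.5 TPM in ZebDKO libraries. Krt19 had 4 regions and rose from 0.6, 0.6 and 0.8 TPM to 87.0, 87.5 and 86.6 TPM in Runx1KO but to 5.0, 4.4 and 4.2 TPM in ZebDKO libraries. Myo5b, a motor of apical recycling, went the other way, with 0.5, 0.3 and 0.3 TPM in Runx1KO and 4.1, 4.0 and 3.9 TPM in ZebDKO libraries, and was lower in Runx1KO than in ZebDKO cells in the direct comparison.

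Polarity genes with a region were Pard6b, Crb3, Llgl2 and Prom2. Crb3, of the apical Crumbs complex, had 1 region over its start and rose from 0.5, 0.5 and 0.8 TPM to 56.3, 55.9 and 60.7 TPM in Runx1KO and 54.5, 52.6 and 58.3 TPM in ZebDKO libraries. Pard6b, of the Par complex, and Llgl2, of the basolateral Scribble group, rose by 2.92 and 2.48 in Runx1KO and by 2.31 and 1.33 in ZebDKO cells. Of the matrix adhesion genes Lama3, a laminin chain, rose by 2.63, and Itgb6, an integrin, stayed below the filter in Runx1KO cells. Among membrane proteases and their inhibitors, Prss8 rose by 2.74 in Runx1KO cells and Spint2 rose from 19.3, 18.6 and 16.4 TPM to 158.0, 149.0 and 146.2 TPM. St14 and Tmprss2 stayed below the filter there, and St14 rose by 2.24 in ZebDKO cells.

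Of 12 transcription and splicing genes of epithelia, Grhl2, Grhl3, Elf3 and Ehf had regions. Elf3, an Ets factor, rose by 1.89 in Runx1KO and 1.97 in ZebDKO cells with 2 regions that hold no Zeb match. Grhl3 had 3 regions, one of them over its start, and read 1.3, 1.9 and 1.5 TPM in control and 1.9, 1.4 and 1.9 TPM in Runx1KO libraries, which overlap. Ovol1 and Klf2 had no clustered opening region and read higher in Runx1KO cells by 1.22 and 2.31.

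Of 18 mesenchymal genes 1 had any of the regions, beside 1329 of the 20163 genes of the TPM table that matched a gene model. It was Col1a1, a fibrillar collagen, and its log2 fold change of -0.03 was not called. Of the list 13 genes were tested and 6 were lower in Runx1KO cells (background 5.10%), with none higher (background 7.91%). Meox1 on the metanephric list had 1 region and was below the filter. On the lists of other cell types, Pecam1 had 4 regions and read at most 0.1 TPM in control and Runx1KO libraries, and Cd68 had 1 and was not called. Csf1r, a growth factor receptor of macrophages, had 4 regions, one of them over its start, and read 0.7, 1.0 and 0.4 TPM in control, 30.5, 28.8 and 29.7 TPM in Runx1KO and 26.1, 24.2 and 23.1 TPM in ZebDKO libraries. The defining leukocyte gene Ptprc was at 0 in all 9 libraries, and the summed leukocyte markers of Runx1KO libraries, 31.3 to 33.0 TPM, were mostly Csf1r.

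MicroRNA genes lay near some of the regions. Of 529 microRNA genes of GENCODE vM1 with a standard name, 19 had a clustered opening region within 12500 bp and 8 within 1 kb. Within 12500 bp, 32 had an isolated opening region, 43 a closing region and 92 a clustered stable region. From clustered opening to clustered stable, these classes hold 3347, 5623, 8741 and 15897 regions, and the counts rise with class size. Closeness to microRNA genes was thus not particular to the clustered opening regions. The 19 included the cluster of Mir429, Mir200a and Mir200b on chromosome 4. The region chr4:155427283-155427635, with 1 Zeb match, lay 0.378 kb from Mir429, 1.37 kb from Mir200a and 2.15 kb from Mir200b. The second miR-200 cluster, Mir200c and Mir141 on chromosome 6, was 75.9 and 75.5 kb from the nearest such region and 20.1 and 20.5 kb from the nearest isolated opening region. Mature microRNA was not measured in these libraries. The mature sequences (RefSeq, GRCm38) are shown because their seeds define what they can pair with, and capitals mark the seed, bases 2 to 8.
mmu-miR-200b-3p: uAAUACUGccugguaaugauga
mmu-miR-429-3p: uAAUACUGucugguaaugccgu
mmu-miR-200a-3p: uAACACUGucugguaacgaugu
mmu-miR-203-3p: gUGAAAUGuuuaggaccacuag
miR-200b and miR-429 share a seed, and the miR-200a seed differs from it. Mir203, a microRNA of stratified epithelium, had a region with 2 Zeb matches 0.154 kb away at chr12:113368285-113368936. Mir375 lay inside a region of 910 bp at chr1:74947037-74947946 with 5 Zeb matches. Mir138-2 also lay inside a region, of 864 bp with 2 Zeb matches. The remaining microRNA genes within 1 kb were Mir129-1, Mir142, Mir1934 and Mir330. The regions nearest to Mir129-1 and Mir142 held 2 Zeb matches each, that of Mir330 held 1 and that of Mir1934 held none. The microRNAs whose sequences are shown are a selection and do not describe the whole set. Near the miR-200 cluster a further region, chr4:155433328-155434370, lay over the start of Ttll10 and held 5 Zeb matches, of which 2 are in the following stretch, with capitals as before.
chr4:155433688-155433837: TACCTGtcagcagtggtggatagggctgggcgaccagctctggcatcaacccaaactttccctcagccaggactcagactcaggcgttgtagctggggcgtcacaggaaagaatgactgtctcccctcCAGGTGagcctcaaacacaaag

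The regions were not spread evenly over chromosomes. They made up 14.0% of the ATAC-seq regions of chromosome 12, 9.28% of chromosome 16 and 8.66% of chromosome 11, down to 3.47% on chromosome 19 and 2.26% on chromosome 3. Chromosomes 11, 12 and 16 held 26.6% of the regions (891) and 15.7% of all ATAC-seq regions. Expression moved along: for genes with none of the regions, the median log2 fold change of Runx1KO against control was 0.31 on chromosome 16, 0.22 on chromosome 12 and 0.08 on chromosome 11, between -0.05 and -0.22 on the others except chromosome 3, and -0.30 on chromosome 3. Copy number was not measured here, so a chromosome-wide gain and the opening of single regions cannot be told apart on those chromosomes. Without them, 221 of 710 genes near the regions (31.1%) were higher in Runx1KO cells, beside 7.29% of all genes there, and 77.8% of the regions held a Zeb match.

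**Figure D5:**
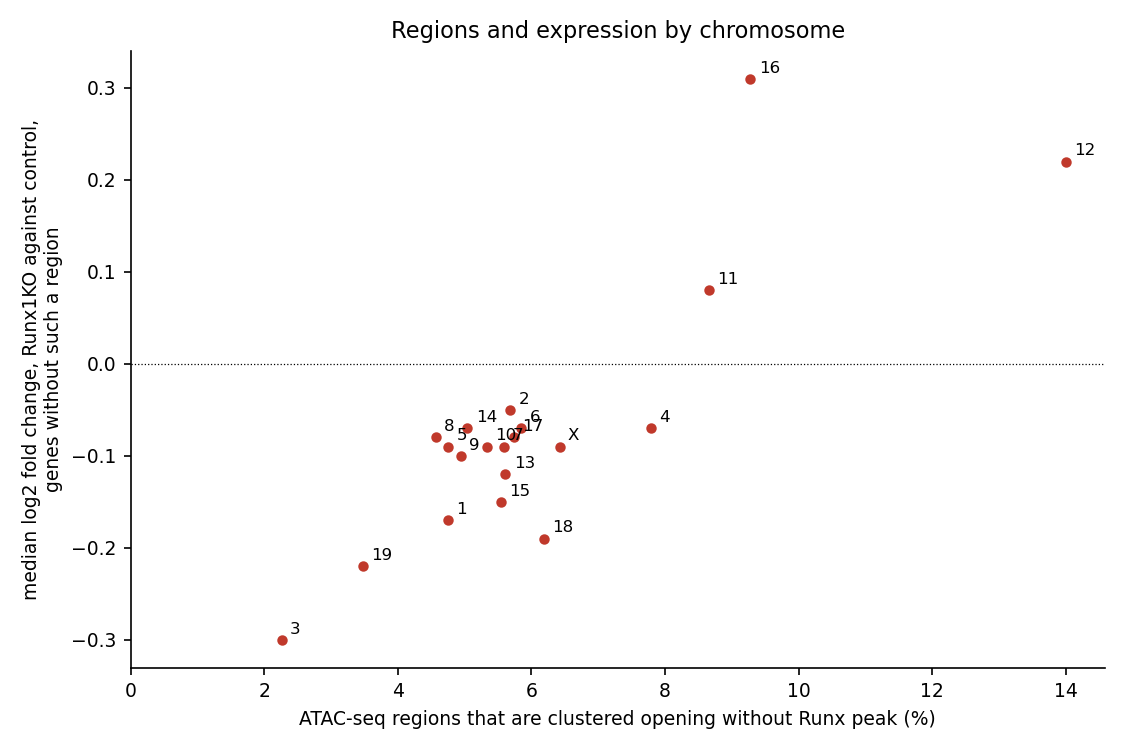
Each point is a chromosome, with the percent of its ATAC-seq regions that are clustered opening regions without a Runx peak on the horizontal axis and, on the vertical axis, the median log2 fold change of Runx1KO against control over genes that have no such region. Chromosomes 11, 12 and 16 lie above 0 and hold the largest shares of regions, and chromosome 3 lies lowest on both axes (the points share libraries, and no test was made).

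Some of the densest groups, picked after their values were seen, stood in blocks where every tested gene rose. The run of 10 opening regions at chr13:120181820-120228938, nearest to Nnt and Paip1 and covering the start of Nnt, spans 47.1 kb with no stable or closing region inside. In chr13:120000001-121000000, 23 of 24 ATAC-seq regions were opening and all 5 tested genes were higher in Runx1KO cells, with log2 fold changes from 2.88 to 3.89. Nnt, the mitochondrial transhydrogenase, read 33.3, 30.6 and 32.6 TPM in control, 240.6, 242.0 and 247.4 TPM in Runx1KO and 28.3, 30.5 and 28.8 TPM in ZebDKO libraries. Paip1 and Tmem267 went from means of 40.0 and 9.97 TPM to 403 and 161 TPM in Runx1KO and stood at 32.0 and 7.10 TPM in ZebDKO cells, though Tmem267 has none of the regions. Of the 24 clustered opening regions from position 119000001 to the end of that chromosome, 14 held a Zeb match. Since copy number was not measured here, a gain of this block, or of the block on chromosome X described next, and the opening of single regions cannot be told apart there either.

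The block chrX:144000001-147000000 held 39 of the regions, of which 4 had a Zeb match and 32 had Grhl letters. It carries gene copies around Ott and Luzp4 that resemble each other, so reads can be split between them and both region and gene values there are uncertain. All 5 tested genes with a start in chrX:144000001-146000000 were higher in Runx1KO cells. Luzp4 rose from a mean of 4.03 to 46.9 TPM and Gm15107 from 2.63 to 39.8 TPM, with 4.43 and 3.10 TPM in ZebDKO cells. On chromosome 12 the run of 10 opening regions at chr12:114415358-114461349, nearest to Tmem121, had a Zeb match in 8 of 9 regions, and in chr12:114000001-115000000 6 of 9 tested genes were higher and none lower. By contrast, in chr4:141000001-142000000, with 30 of the regions, 2 of 12 tested genes were higher, Tmem51 and Kazn, and the median was 0.04.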

How the data were processed

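The series holds RNA-seq, ATAC-seq and ChIP-seq of mK4 cells. The study trimmed reads with Trim Galore, mapped them to mm9 by STAR and took out duplicates with sambamba. The authors counted RNA-seq reads with featureCounts and deposited TPM in 2 tables, of 9 libraries (used here) and of 6 libraries (an alternative). Strand and gene lengths are not given in the sources used here. The authors called ChIP-seq peaks with MACS2 on combined replicates, dropped those that also appear with the Runx1 antibody in the knockout, and deposited a fold enrichment (read, not reported) and a -log10 q value for each peak, of which q served a stricter alternative. The authors kept ATAC-seq peaks seen in 2 or more of 3 replicates, and deposited for them log2 fold changes of Runx1KO over control with an unlabelled -log10 value. Those comparison columns were not used, apart from a check that each list keeps to its 2-fold limit. The lists hold no replicate values.

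Members, comparison classes and gene lists were chosen with earlier results of these data known. Regions were compared and read with Python 3.11.15, pysam 0.24.0 and samtools 1.23.1. Positions came from GENCODE vM1, to which 20163 of 24953 gene symbols were matched. TPM was fitted as log2(TPM+1) with limma 3.58.1 (trend, R 4.3.3), for genes reaching 1 TPM in 3 or more of the 6 libraries compared, with Benjamini-Hochberg adjustment over all genes. Adding 1 understates changes of low genes. The fit was tested on simulated data with known changes. Named genes were Runx1, Zeb1, Zeb2, the study's examples, the 20 tested genes with the most regions, the 8 largest rises and falls among called genes with a region, and genes of the fixed lists. Intervals are Wilson 95%, for counting error only. The sequence of 1 region is not reported here.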

Additional observations from a re-analysis of the deposited data

Results flagged for a closer look

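Of 876 genes near clustered opening regions that were tested in all 3 comparisons, 5 were called in opposite directions in the Runx1KO and ZebDKO lines. In each, the difference between the lines was itself called by limma after Benjamini-Hochberg adjustment. The share of such genes among all genes was not counted, so 5 is not read as high or low for these genes. Socs2, an inhibitor of cytokine signalling, read 5.4, 5.3 and 5.0 TPM in control, 0.9, 0.8 and 0.8 TPM in Runx1KO and 30.4, 31.6 and 28.7 TPM in ZebDKO libraries, a log2 difference between the knockouts of -4.09. Sorcs2, a sorting receptor, read 27.0, 26.7 and 27.2 TPM, then 3.9, 3.8 and 3.8 TPM, then 61.0, 57.8 and 56.9 TPM (-3.62). Ankrd33b read 7.8, 6.7 and 8.0 TPM, then 2.2, 2.0 and 2.3 TPM, then 22.4, 22.8 and 21.0 TPM (-2.87). Gm15127, in the block of similar gene copies on chromosome X, and Rasl11b differed the other way. Gm15127 read 7.6, 7.4 and 7.0 TPM in control, 21.9, 26.1 and 23.6 TPM in Runx1KO and 2.4 TPM in each ZebDKO library (2.87). Rasl11b read 39.0, 41.1 and 46.1 TPM, then 88.3, 83.8 and 98.4 TPM, and at most 17.0 TPM in ZebDKO libraries (2.39). In all 5 the 3 groups of libraries do not overlap, which largely follows from choosing genes called in opposite directions. Socs2, Ankrd33b, Rasl11b and Gm15127 are named here because of these values.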

How the results depend on the processing

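Of 118 counts and shares recomputed under alternatives, 17 moved by over 1.5 times (counts) or left the 95% interval (shares). At a limit of 1.3-fold the genes near the regions numbered 460 higher and 91 lower in Runx1KO against control, 354 and 184 in ZebDKO against control, and 439 and 183 in Runx1KO against ZebDKO. Genes assigned within 20 kb gave 17 lower in Runx1KO, and a GREAT-like assignment gave 55 lower in Runx1KO and 67 lower in ZebDKO. A filter of 5 TPM left 51 lower in Runx1KO than in ZebDKO. A neighbour limit of 5 kb left 1881 regions. In the 200 bp around the middle the shares with a Zeb, Grhl, AP-1 and Runx match were 50.3%, 0.926%, 25.6% and 14.1%, and without the chromosome 13 and X blocks the Grhl share was 1.89%. Within 2.5 kb of a start lay 15.5%. Leaving out chromosomes 11, 12 and 16, or both blocks, was chosen after seeing the data. Nnt in ZebDKO against control, at -0.14 and not called, turned to 0.05 under quantile normalization and 0.06 under median-ratio scaling.

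Replicate numbers did not mark pairs: deviations of same-numbered libraries correlated between -0.098 and 0.01. With the replicate number as a block, 279 genes near the regions were higher and 31 lower in Runx1KO against control, as without it, and the counts of the other comparisons kept their values too. Leaving out any 1 library gave 279 to 282 higher and 29 to 32 lower. The peak lists carry no replicate values, so the spread of each region's accessibility is unknown, and TPM does not show how many reads stand behind low values.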
